A study of Mus musculus with 36 samples.

Results

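The regions described here are the short peaks with the strongest H3K9me3 signal in mouse liver. In each of the 6 deposited tables, rows on chromosomes 1 to 19 were kept if their parent peak was at most 1000 bp long, and the top 1% of these rows by the authors' mean log2 CPM (CPM, the reads in a bin relative to all reads counted in the library) were taken. This gave 639 of 63941 short rows in control females at 3 and 8 weeks, 756 of 75647 in females at 3 weeks and 608 of 60788 in females at 8 weeks. It gave 853 of 85281 in control males at 3 and 8 weeks, 938 of 93784 in males at 3 weeks and 556 of 55627 in males at 8 weeks. Members of different tables that shared at least 1 base were merged into 1863 places. The members were chosen by their level, so the level itself is given as a description and without a test.

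The libraries came from livers of male and female offspring of dams on a Western-style diet (maternal obesity, MO) or on chow (control). All offspring were littermate controls from an in-house colony with a floxed Reg3g allele, and no deletion is part of the comparison. Livers were taken at 3 weeks, before weaning, or at 8 weeks, after 5 weeks on chow. The 8 groups of sex, age and maternal diet had 4 H3K9me3 libraries each, and each table held the mean over the 8 libraries of 2 groups. The 3-week and 8-week tables of a sex hold MO and control libraries together and share no library, and neither do the tables of females and males. The tables hold no values per library, so no error, depth or test is given for any level. The level is a mean over both groups of a table, and the authors' own columns on the difference between them were not used, so maternal diet is not compared here. Whole liver holds several cell types, and a larger share of marked cells cannot be told apart from more signal per cell.

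H3K9me3 is a histone mark of constitutive heterochromatin. It is laid down by SETDB1, SUV39H1 and related enzymes, often where KRAB zinc finger proteins bind repeated DNA, and it keeps transposable elements, clustered gene families and many germline genes silent. It usually forms broad domains, so a short peak is a compact patch of the mark.

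Sequences are shown for places that stand for the kinds of region found: the highest row (Gtpbp4), rows that were members in all 6 tables (Zfp442, Vmn1r230, Zfp938, Cyp3a41a and Papolb), a promoter of a germline gene (Stk31), and rows listed in 1 sex only (Sp3os and Crlf2). Papolb, Sp3os and Crlf2 were chosen after their values were seen. Each is named by its nearest gene and is the plus strand of mm10/GRCm38 over the longest stretch of the bin without an annotated exon, up to 300 bases. Capitals mark CG dinucleotides, the sites of DNA methylation.
Gtpbp4, chr13:9011788-9012087: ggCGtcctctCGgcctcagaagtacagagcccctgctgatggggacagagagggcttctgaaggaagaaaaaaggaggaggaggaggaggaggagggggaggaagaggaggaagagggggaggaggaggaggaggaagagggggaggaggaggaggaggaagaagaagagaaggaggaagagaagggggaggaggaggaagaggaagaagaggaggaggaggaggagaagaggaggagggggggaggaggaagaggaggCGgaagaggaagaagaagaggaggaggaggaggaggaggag
Zfp442, chr2:150412012-150412311: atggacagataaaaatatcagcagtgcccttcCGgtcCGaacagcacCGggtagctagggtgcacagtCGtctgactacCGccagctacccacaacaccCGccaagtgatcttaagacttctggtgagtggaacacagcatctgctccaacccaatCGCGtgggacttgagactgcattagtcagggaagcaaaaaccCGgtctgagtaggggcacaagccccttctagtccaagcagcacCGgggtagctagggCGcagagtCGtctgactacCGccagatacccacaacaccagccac
Vmn1r230, chr17:20865404-20865703: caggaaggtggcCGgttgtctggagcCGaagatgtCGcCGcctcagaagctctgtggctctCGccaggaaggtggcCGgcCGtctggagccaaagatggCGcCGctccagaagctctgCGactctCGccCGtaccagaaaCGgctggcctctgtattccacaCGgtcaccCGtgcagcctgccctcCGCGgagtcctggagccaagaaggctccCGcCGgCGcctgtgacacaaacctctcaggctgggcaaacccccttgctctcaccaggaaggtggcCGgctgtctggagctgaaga
Zfp938, chr10:82222944-82223243: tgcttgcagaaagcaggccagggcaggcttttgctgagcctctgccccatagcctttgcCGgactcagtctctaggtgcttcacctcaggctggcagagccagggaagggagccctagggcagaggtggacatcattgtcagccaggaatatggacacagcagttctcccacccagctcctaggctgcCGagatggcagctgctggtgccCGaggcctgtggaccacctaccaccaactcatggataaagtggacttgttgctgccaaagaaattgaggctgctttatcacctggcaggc
Cyp3a41a, chr5:145661864-145662163: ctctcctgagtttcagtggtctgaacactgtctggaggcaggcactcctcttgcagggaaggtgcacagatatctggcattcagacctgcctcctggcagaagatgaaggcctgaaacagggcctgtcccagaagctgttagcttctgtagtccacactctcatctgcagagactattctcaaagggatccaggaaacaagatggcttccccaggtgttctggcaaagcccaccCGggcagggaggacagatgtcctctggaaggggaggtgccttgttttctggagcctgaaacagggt
Stk31, chr6:49395303-49395602: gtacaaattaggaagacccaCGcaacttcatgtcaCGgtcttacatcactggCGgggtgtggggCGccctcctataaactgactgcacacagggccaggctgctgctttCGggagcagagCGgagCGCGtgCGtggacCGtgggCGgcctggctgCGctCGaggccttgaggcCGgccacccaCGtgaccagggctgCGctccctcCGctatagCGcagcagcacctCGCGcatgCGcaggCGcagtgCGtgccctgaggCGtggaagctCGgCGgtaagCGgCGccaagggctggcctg
Papolb, chr5:142530077-142530141: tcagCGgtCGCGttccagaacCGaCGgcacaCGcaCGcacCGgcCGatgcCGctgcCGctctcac
Sp3os, chr2:73012738-73013037: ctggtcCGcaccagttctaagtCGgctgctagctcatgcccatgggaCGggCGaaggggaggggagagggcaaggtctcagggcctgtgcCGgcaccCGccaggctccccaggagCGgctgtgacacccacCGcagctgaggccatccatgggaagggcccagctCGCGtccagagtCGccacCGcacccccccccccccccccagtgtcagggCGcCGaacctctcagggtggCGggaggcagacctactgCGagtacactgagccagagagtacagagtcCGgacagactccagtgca
Crlf2, chr5:109599164-109599390: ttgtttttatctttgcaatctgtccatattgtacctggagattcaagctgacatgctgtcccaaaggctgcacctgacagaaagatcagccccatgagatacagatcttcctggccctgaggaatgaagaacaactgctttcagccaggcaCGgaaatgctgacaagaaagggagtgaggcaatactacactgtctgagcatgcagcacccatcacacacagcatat

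The stretch near Gtpbp4 was 90.3% A or G and held 200 consecutive bases of only A and G. A run of at least 100 such bases (A and G only, or C and T only) was found in 1 of the 1863 places, the one near Gtpbp4, and in 0.113% of the 196294 distinct short rows. The Vmn1r230 stretch held 21 CG dinucleotides and the Stk31 stretch 28, against 1 in the Cyp3a41a stretch. The 65 exon-free bases at Papolb held 11 CG dinucleotides and 2 matches to TGCCGC, the letters bound by the KRAB zinc finger protein ZFP57 when methylated.

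The rule cut a continuous range of levels. The lowest member had 11.8 CPM in control females, 9.11 in females at 3 weeks, 13.3 in females at 8 weeks, 8.91 in control males, 7.42 in males at 3 weeks and 15.8 in males at 8 weeks. Rows just outside were nearly equal to those just inside. In males at 8 weeks the last members lay near Rack1 (15.8296 CPM) and Ube2v2 (15.8295 CPM), and the first rows left out lay near Ccnh (15.8285 CPM) and Grik2 (15.8284 CPM). In control females the last members lay near Plppr1 (11.7774 CPM) and Dok6 (11.7758 CPM), followed outside by rows near Vmn1r29 (11.7749 CPM) and Papolg (11.7705 CPM).

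In females at 3 weeks the edge ran from Lix1 (9.1154 CPM) and Sult2a4 (9.1141 CPM) inside to Prp2 (9.1107 CPM) and Aga (9.1106 CPM) outside. In females at 8 weeks it ran from Ikzf2 (13.3331 CPM) and Vstm2a (13.3328 CPM) to Vmn2r24 (13.3305 CPM) and Sdhaf3 (13.3263 CPM). In control males it ran from A830082K12Rik (8.9114 CPM) and Basp1 (8.9104 CPM) to Vmn1r173 (8.9092 CPM) and 1700017L05Rik (8.905 CPM). In males at 3 weeks it ran from Cobl (7.4162 CPM) and Pcdh20 (7.416 CPM) to Ust (7.4155 CPM) and Zswim2 (7.4147 CPM).

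Most members were only moderately above other short peaks. Their median level was 1.96 times that of all short rows in control females, 1.77 times in females at 3 weeks and 2.27 times in females at 8 weeks. The ratio was 2.24 in control males, 1.89 in males at 3 weeks and 2.60 in males at 8 weeks. The number of members at 20 CPM or more was 11, 5 and 54 in these female tables and 10, 5 and 166 in the male tables. The largest of these counts was 166 of 556 members, in males at 8 weeks, and a fixed level follows the scale of each table.

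**Figure D1:**
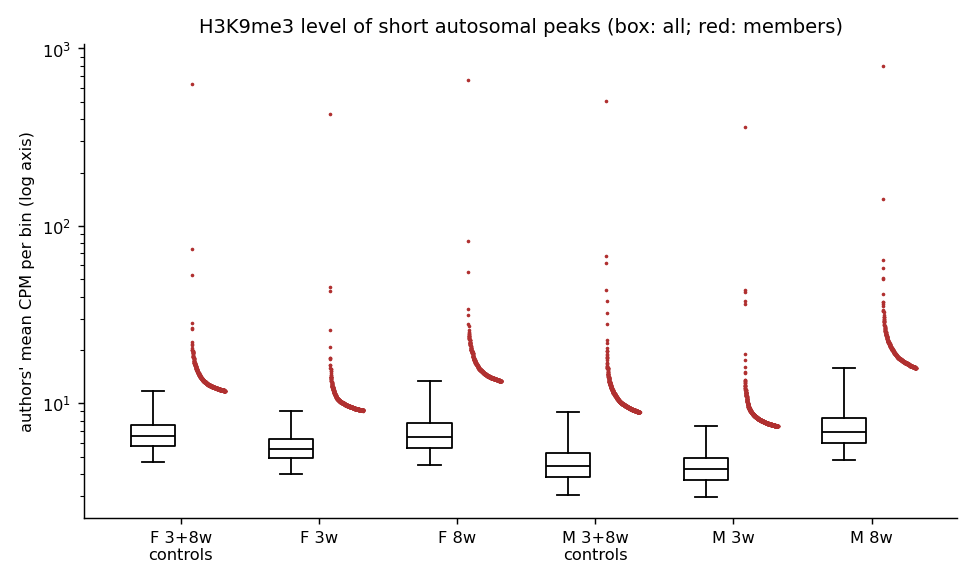
Authors' mean CPM per bin on a log axis for the 6 tables (F, females; M, males; w, weeks). Boxes show all short rows (line, median; box, quartiles; whiskers, 1st to 99th percentile) and red points the members, whose highest row reaches 362 to 801 CPM.

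Members were long for short peaks. A bin is at most 501 bp, and 61.0% to 79.9% of members were full bins, against 33.5% to 36.2% of all short rows. The median parent peak of the members was 529 to 583 bp. A level per bin counts reads over the whole bin, so it depends on bin length as well as on signal density. When rows were ranked by CPM per base instead, the median chosen bin was 118 to 156 bp, and 2.35% of the members were chosen again in males at 3 weeks and 30.8% in males at 8 weeks, the lowest and highest of the 6 tables. Features of the members are therefore also given below among full bins alone.

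The highest row was the same in every table. It lies at chr13:9011707-9012168, in an intron of transcript ENSMUST00000221672 and 15624 bases from the start site of Gtpbp4, which encodes a nucleolar GTP-binding protein. Its level was 634 CPM in control females, 427 in females at 3 weeks, 666 in females at 8 weeks, 508 in control males, 362 in males at 3 weeks and 801 in males at 8 weeks. The second highest row of each table reached 43.7 to 141 CPM. At 90% identity over at least 50% of its length, no other match to this bin was found in the genome, and its median 31-mer occurred once. Of its 31-mers 70.1% occurred once, another occurred 1710 times, and 63.4% of the bin was masked. The tables hold no input level, and its level in input libraries was not analysed here.

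At chr11:106066511-106066865, a promoter row 450 bases from the start site of the mitochondrial translation factor gene Taco1, the levels were 73.9, 45.5 and 82.5 CPM in control females, females at 3 weeks and females at 8 weeks. They were 67.8, 42.3 and 7.08 CPM in control males, males at 3 weeks and males at 8 weeks. The rows compared differ, since the bin was 328 or 355 bp except in males at 8 weeks, where a 501 bp bin was listed at the last value. Each parent peak has a single row in a table, and the bin that is listed can differ between tables. The place near Taco1 was picked after its values were seen.

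Some of the other places that were members in all 6 tables had a nearest gene in a clustered family. Of the 162 such places, 15 were nearest to zinc finger genes, 8 to vomeronasal receptors, 7 to cytochrome P450 genes and 4 to olfactory receptors. Another 28 were nearest to genes with predicted or clone names. The coordinates of a place span the bins merged into it and can exceed 501 bp, and its level in a table is that of the listed bin with most shared bases. Given in the order control females, females at 3 weeks, females at 8 weeks, control males, males at 3 weeks and males at 8 weeks, the promoter place of the zinc finger gene Zfp442 at chr2:150411902-150412875 had 22.2, 13.7, 28.0, 19.8, 13.0 and 37.4 CPM. In females at 3 weeks this was another bin, of 474 bp, and in the other tables a 501 bp bin. The intergenic place at chr5:145661764-145662310, nearest to the cytochrome P450 gene Cyp3a41a, had 19.8, 18.1, 25.0, 18.1, 14.8 and 33.1 CPM. Both were highest in males at 8 weeks and lowest in males at 3 weeks, tables whose medians over all short rows were 6.90 and 4.24 CPM.

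In the same order, the place at chr17:20865254-20865802 near the pheromone receptor gene Vmn1r230 had 19.2, 11.6, 23.8, 20.4, 13.5 and 36.1 CPM. The place at chr10:82222822-82223344 near Zfp938 had 19.2, 13.0, 24.0, 18.2, 13.2 and 32.7 CPM. The place at chr13:61833479-61834011 had 19.5, 14.0, 23.3, 16.2, 11.0 and 30.7 CPM. Its assigned gene is the placental cathepsin gene Cts3, whose start site is 263384 bases away. Among the first 12 places, those near Gm1553, Gm10033, 4930480G23Rik and 2610307P16Rik ranged from 10.3 CPM, at Gm1553 in males at 3 weeks, to 37.2 CPM, at Gm1553 in males at 8 weeks.

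**Figure D2:**
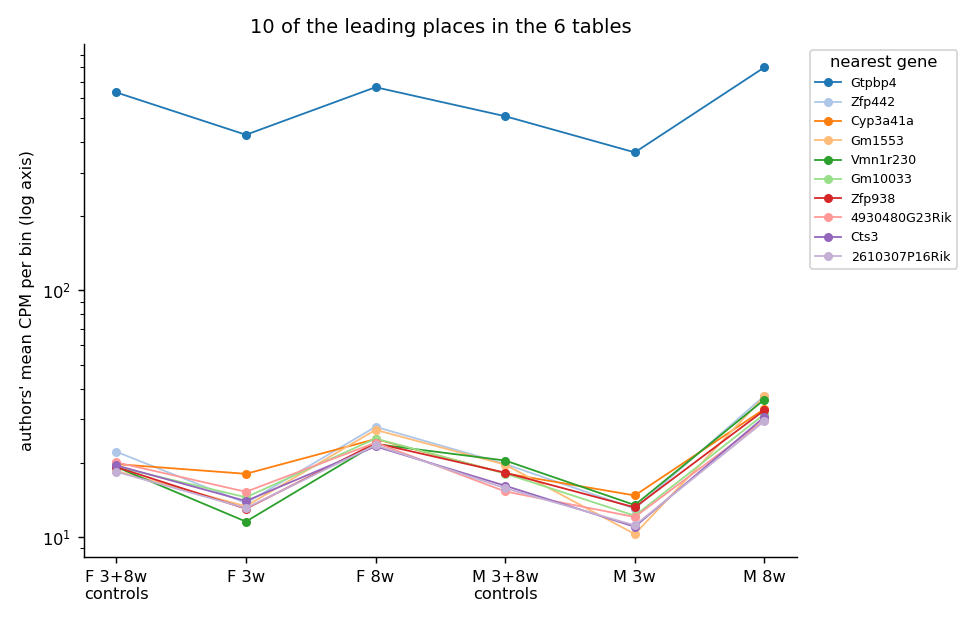
Authors' mean CPM per bin (log axis) of 10 of the first 12 places, ordered by number of tables and mean level, in the 6 tables. The place near Gtpbp4 has at least 362 CPM in each table, and the others lie between 10.3 and 37.4 CPM.

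Of the 1863 places, 162 were members in all 6 tables, 94 in 5, 140 in 4, 241 in 3, 399 in 2 and 827 in 1. The table of controls at both ages shares its libraries with the 3-week and 8-week tables of the same sex, so these counts are in part built in. The pairs of tables compared next share no library. Between 3 and 8 weeks, 39.2% of the members of the 3-week table and 48.7% of those of the 8-week table overlapped in females, and 32.0% and 54.0% in males. Between control females and control males, 61.7% of the female and 46.2% of the male members overlapped. A member was usually listed in the other table even where it was no member there: 97.8% of members in control females shared a base with a row in control males, against 65.7% of all short rows.

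A small number of places had no listed peak at all in the other sex. They numbered 16 among the 695 places found only in male tables and 11 among the 496 found only in female tables. The row at chr2:73012734-73013042, nearest to the antisense gene Sp3os, had 62.0 CPM in control males, 43.7 in males at 3 weeks and 141 in males at 8 weeks. The row at chr4:7391440-7391830 near 8430436N08Rik had 32.5, 17.5 and 58.0 CPM in these tables. The row at chr15:44659632-44660094 near Ebag9, picked after its values were seen, had 28.1 CPM in control males and 18.9 CPM in males at 3 weeks. It was above both in males at 8 weeks.

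In females, the exonic row at chr5:109598890-109599390 nearest to the cytokine receptor gene Crlf2 had 28.4 CPM in controls, 26.0 at 3 weeks and 23.8 at 8 weeks. The row at chr19:57926572-57926892 near Mir5623 had 19.9, 18.0 and 19.9 CPM, and the row at chr5:83795456-83795851 near Tecrl had 18.7, 17.8 and 16.1 CPM. All 3 were lower at 8 than at 3 weeks or rose by less than the median of all short female rows. Peaks were merged separately for each sex and blacklisted regions were removed, so a peak that is not listed is not a measured level of 0.

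Repeated or low-complexity DNA made up most of the bin in most members. The reference genome marks repeats and low-complexity sequence in lower case (soft-masking), and no repeat class was assigned here. Over 50% of the bin was masked in 77.4% to 81.7% of members, against 26.8% to 33.7% of all short rows. Among full bins alone the shares were 76.8% to 82.3% and 21.5% to 26.2%. The median masked share of a member was 84.6% to 88.6%. By place, 67.3% of those that were members in all 6 tables were over 50% masked, against 79.1% of those in 1 table. When rows were ranked by CPM per base, the share of chosen rows over 50% masked was 35.7% in control females and 33.1% in control males, so this feature belongs to rows with a high level per bin.

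Members were also richer in CpG. The median was 2.80 to 3.71 CpG per 100 bases, against 1.76 to 2.20 in all short rows, while median GC content was 55.7% to 56.9% against 53.5% to 55.2%. Among full bins the CpG medians were 2.99 to 3.79 and 1.80 to 2.20. TGCCGC was found on either strand in 16.9% to 19.6% of members and 9.97% to 13.3% of all short rows, and in at most 21.4% of full member bins against at most 17.5% of all full short bins. CACGTG, the E-box, was found in 4.32% to 6.75% of members against 7.74% to 8.25% of short rows. Runs of at least 10 repeats of a 2-base unit were in 0.156% to 0.794% of members against 2.87% to 3.23%. No member held 2 tandem telomere repeats, which were in only 0.0164% to 0.0198% of all short rows, so nothing is read from this.

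**Figure D3:**
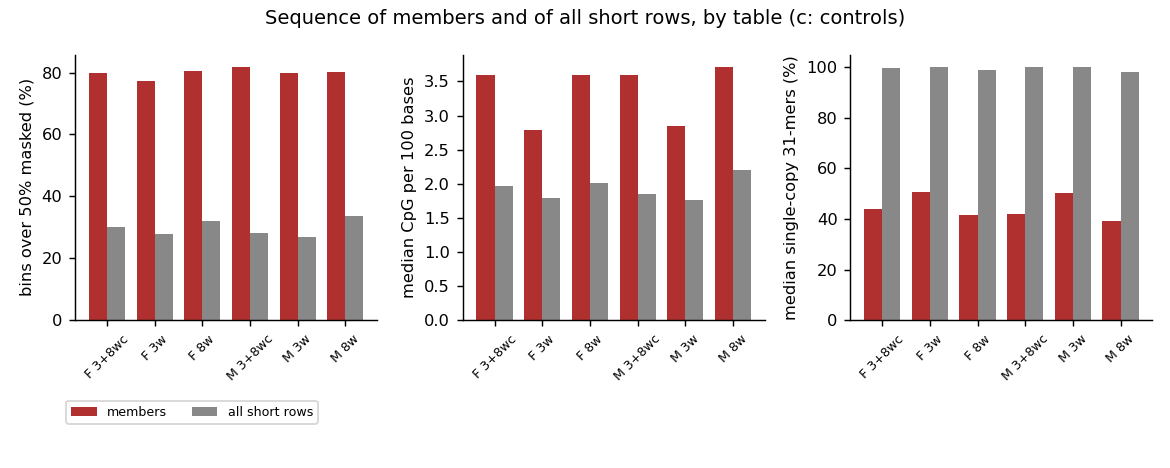
Share of bins over 50% masked, median CpG per 100 bases and median share of 31-mers that occur once in the genome, for members and all short rows of each table (c, controls). Members were over 50% masked in 77.4% to 81.7% of bins, against 26.8% to 33.7% of all short rows.

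The copy number of the sequence was high for many members. A median of 39.3% to 50.6% of the 31-mers of a member occurred once in the genome, against 98.1% or more in all short rows. At 90% identity over at least 50% of the bin, 1113 of 1863 places (59.7%) had 10 or more other matches and 781 (41.9%) had 100 or more, while 508 (27.3%) had none. Matches were searched for members only, so no count of matches here has a share over all short rows beside it. A place in tandemly repeated sequence can give several matches per copy. The places with most matches lay near Tle1 (54093), Tecrl (48012), 8430436N08Rik (10980, at chr4:7702729-7703229) and Gm10745 (9660). The other place near 8430436N08Rik, at chr4:7391440-7391830, had no other match. On chromosome Y, 583 places had a match. No place matched the mitochondrial chromosome, and none lay within 10 kb of an assembly gap of at least 100 bases. How reads with several possible positions were treated is not stated for these libraries, so the share of a level that comes from other copies was not tested.

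Many places held the same stretches. The 30-base run found in most places was taken, the places holding it were set aside, and the step was repeated 8 times; these runs were chosen from the members and are a description. Each is given on the strand that comes first in the alphabet, as the count of places shows which sequences recur among the strongest short peaks.
run 1: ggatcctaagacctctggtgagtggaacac
run 2: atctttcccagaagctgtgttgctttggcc
run 3: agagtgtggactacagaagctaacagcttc
run 4: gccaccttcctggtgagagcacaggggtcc
run 5: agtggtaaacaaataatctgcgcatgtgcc
run 6: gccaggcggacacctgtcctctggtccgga
run 7: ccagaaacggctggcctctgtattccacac
run 8: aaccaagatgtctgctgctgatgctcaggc

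Run 1 was in 152 places (8.16%) and in 1.33% of all distinct short rows, and occurred 3400 times in the genome. Run 2 was in 138 places (7.41%) and 0.473% of short rows, with 1593 occurrences. Run 4 was in 111 places (5.96%) and 0.271% of short rows, with 488 occurrences, and run 7 was in 90 places (4.83%) and 0.237% of short rows, with 491. Runs 3, 5, 6 and 8 were in 82, 56, 56 and 31 places (4.40%, 3.01%, 3.01% and 1.66%). They were in 0.496%, 0.609%, 0.509% and 0.0922% of short rows. At least 1 of the runs was in 621 places (33.3%) and at least 2 were in 85. These 2 counts have no share over all short rows beside them, and the runs were picked to be in many places. The stretch printed for Vmn1r230 holds run 7, and that printed for Cyp3a41a holds run 3 on the other strand.

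Members lay mostly away from genes. Distal intergenic rows were 58.5% to 65.1% of members and 43.5% to 46.1% of all short rows. Introns held 25.4% to 29.5% against 26.7% to 31.2%. Promoters, within 3 kb of a start site, held 3.12% to 6.61% against 15.4% to 16.9%, and among full bins 3.08% to 6.94% against 19.0% to 22.5%. The median distance to the nearest start site was 44167.5 to 47726.5 bases in members.

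The 97 promoter places differed from the rest in masked share, with a median of 18.8% against 85.5% over all places. Of them, 37 held 4 or more CpG per 100 bases. Among member rows with the same coordinates at both ages, 311 of 1024 in females and 323 of 1127 in males did. Median CpG per 100 bases was 3.29 in places under 10% masked and 3.39 in places over 50% masked. Of the 132 places with under 10% masked sequence, 40 were promoters (30.3%), against 2.26% of the 1503 places over 50% masked. The promoters named next were picked after their values were seen and stand for no group. The list of germline and meiosis genes as a whole was nearest to 0.156% to 0.719% of members and 0.165% to 0.191% of all short rows. Its 9 places, at 7 genes, had a median masked share of 79.6%, and those at Sycp1 and Mov10l1 were intronic. None was a member in all 6 tables.

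The place at the start site of Papolb, a testis poly(A) polymerase, at chr5:142529641-142530174 was a member in all 6 tables. It had 12.0 CPM in control females, 9.55 in females at 3 weeks, 14.1 in females at 8 weeks, 13.8 in control males, 7.49 in males at 3 weeks and 22.3 in males at 8 weeks, with 49 CpG. In the same order Meiosin, a switch for entry into meiosis, had 15.0, 9.75, 16.2, 5.91, 8.81 and 20.8 CPM at chr7:19117953-19118490, with 43 CpG, from a shorter bin (362 bp) in control males. Spo11, which makes the meiotic double-strand breaks, had 12.6, 9.93, 13.1, 10.1, 6.95 and 15.5 CPM at chr2:172979610-172980174 and was a member in 3 tables. Stk31, a testis kinase gene, had 11.3, 8.87, 12.4, 9.56, 6.38 and 16.9 CPM at chr6:49395302-49395802. Stk31 was a member in 2 male tables and in no female table, so its other levels lie below the thresholds.

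Other CpG-rich promoters were those of Slc25a31, the germ cell ADP/ATP carrier, and of 2 imprinted genes. In the same order of tables, Slc25a31 at chr3:40708529-40709029 had 10.2, 7.94, 12.7, 9.68, 7.77 and 11.5 CPM, as a member in 2 male tables only. Its bin was 501 bp in females at 8 weeks, control males and males at 3 weeks, and 374 or 390 bp in the others. Nap1l5 at chr6:58906460-58906975 had 11.9, 6.53, 8.69, 10.9, 8.90 and 17.3 CPM. In females at 3 and 8 weeks another bin, of 385 bp, was listed and was no member. Zdbf2 at chr1:63199989-63200684 had 13.2, 9.31, 13.9, 9.76, 3.78 and 15.5 CPM. The 3.78 CPM in males at 3 weeks is from a 501 bp bin, while the other male tables list a 479 bp bin, and it was a member in 1 male and 3 female tables. The promoter row of the transcription factor gene Thap1 at chr8:26158020-26158721 held 64 CpG and had 12.5, 7.86, 15.4, 9.93, 6.10 and 16.9 CPM, as a member in 4 tables.

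Nearest genes of members were often of clustered families. Zinc finger genes, many of which encode the KRAB proteins that direct H3K9me3, were nearest to 5.16% to 6.74% of members and 1.81% to 1.96% of all short rows. The 93 places lay at 66 genes. Cytochrome P450 genes, which oxidise steroids and drugs in the liver, were nearest to 2.77% to 3.91% against 0.320% to 0.381%, with 46 places at 25 genes. Vomeronasal receptors were nearest to 3.20% to 4.61% against 0.618% to 0.901%, and olfactory receptors to 2.13% to 4.28% against 1.04% to 1.37%. Among full bins the zinc finger shares were 5.74% to 7.63% against 1.85% to 2.09%, and the P450 shares 2.43% to 4.66% against 0.319% to 0.445%.

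Major urinary protein genes, encoding pheromone carriers made mainly by the male liver, were nearest to 0.329% to 1.06% of members against 0.0554% to 0.0755%. Imprinted genes were nearest to 0.540% to 0.782% against 0.381% to 0.416%. Small structural RNA genes were nearest to 1.80% to 3.04% against 2.13% to 2.28%. Protocadherins (4 places) were nearest to 0% to 0.265% of members against 0.158% to 0.222%. Hox genes (1 place) were nearest to 0% to 0.132% against 0.0352% to 0.0469%. Core histone genes had 0 places and were nearest to 0.0185% to 0.036% of all short rows. Nothing is read from counts this small. Genes with predicted or clone names took 13.0% to 15.6% of members and 13.1% to 14.2% of all short rows. A nearest gene is a label of position, since most of these rows are intergenic.

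**Figure D4:**
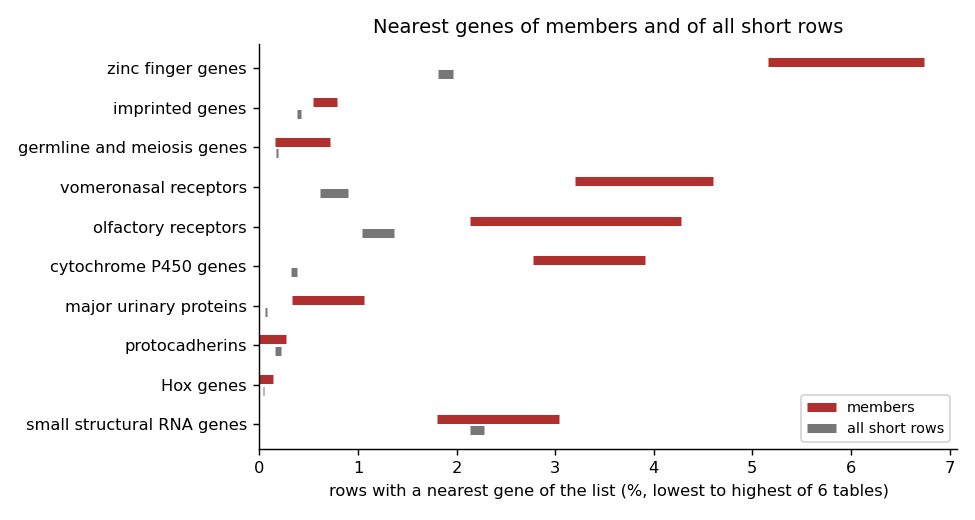
Share of rows whose nearest gene is in each list; each bar runs from the lowest to the highest of the 6 tables, in members (red) and all short rows (grey). Zinc finger, vomeronasal, olfactory and P450 bars of the members lie above those of all short rows.

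Within the lists, further places were as follows, in the order control females, females at 3 weeks, females at 8 weeks, control males, males at 3 weeks and males at 8 weeks. The promoter row of Zfp930 at chr8:69225558-69226089 had 17.3, 12.5, 22.0, 14.1, 10.1 and 26.0 CPM. Vmn2r112 at chr17:22692081-22692585 had 16.7, 10.5, 21.9, 16.0, 9.91 and 30.6 CPM. Or1j1 at chr2:36822125-36822669 had 16.0, 11.6, 19.9, 12.1, 7.20 and 21.7 CPM, as a member in 5 tables. Mup9 at chr4:60406844-60407417 had 11.8, 7.82, 15.6, 12.8, 8.73 and 23.1 CPM, also as a member in 5.

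Places clustered at some of these families. The 1 Mb windows with most places were on chromosome 19, with 15 places at 39046096 to 39921645 among the Cyp2c genes, and on chromosome 17, with 14 places at 22071269 to 22853756 among Zfp945, Zfp946, Zfp947, Zfp994 and Vmn2r112. Another 14 lay on chromosome 5 at 145443277 to 145953651 among the Cyp3a genes, and 11 on chromosome 10 at 82010786 to 82411889 near Zfp873, Zfp938 and Gm1553. These windows held 74, 126, 133 and 152 distinct short rows. Within 10 kb of another place lay 139 places (7.46%). By chromosome, the share of places ranged from 2.95% on chromosome 19 to 9.07% on chromosome 1, where 7.66% of distinct short rows lay, and was highest per length on chromosome 17, at 11.4 places per 10 Mb.

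Levels at 3 and 8 weeks were compared in rows with the same coordinates in both tables of a sex. The median difference of all short rows (log2 CPM, 8 weeks minus 3 weeks) was 0.23 over 49512 rows in females and 0.63 over 48597 rows in males, and differences are given relative to these shifts. The median of rows that were members of both tables was 0.36 in females (293 rows) and 0.52 in males (299 rows). The threshold of the rule itself lay 0.32 higher at 8 than at 3 weeks in females and 0.47 in males, relative to the same shifts, so these medians largely restate the thresholds. The median of members of either table was 0.28 in females and 0.26 in males, and is fixed in part by the rule in the same way.

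The comparison was therefore made at rows chosen in the other sex, from libraries that share none with the levels compared. Female rows that shared at least 50% of their length with members of either male age table had a median difference of 0.30 relative to the shift (1027 rows, 848 above), against 0.06 for female rows at any short male row. Male rows at female members had 0.34 (898 rows, 726 above), against 0.04. At members of the other sex's 3-week table alone the medians were 0.25 in females and 0.23 in males, and at those of its 8-week table alone 0.45 and 0.51. Rows that were no member in their own sex, 477 in females and 356 in males, had medians of 0.26 and 0.27. The rows at any short row of the other sex were not matched to these for level. No test over libraries was run, since the level used is a mean over libraries and the authors' columns on the age comparison were not used.

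**Figure D5:**
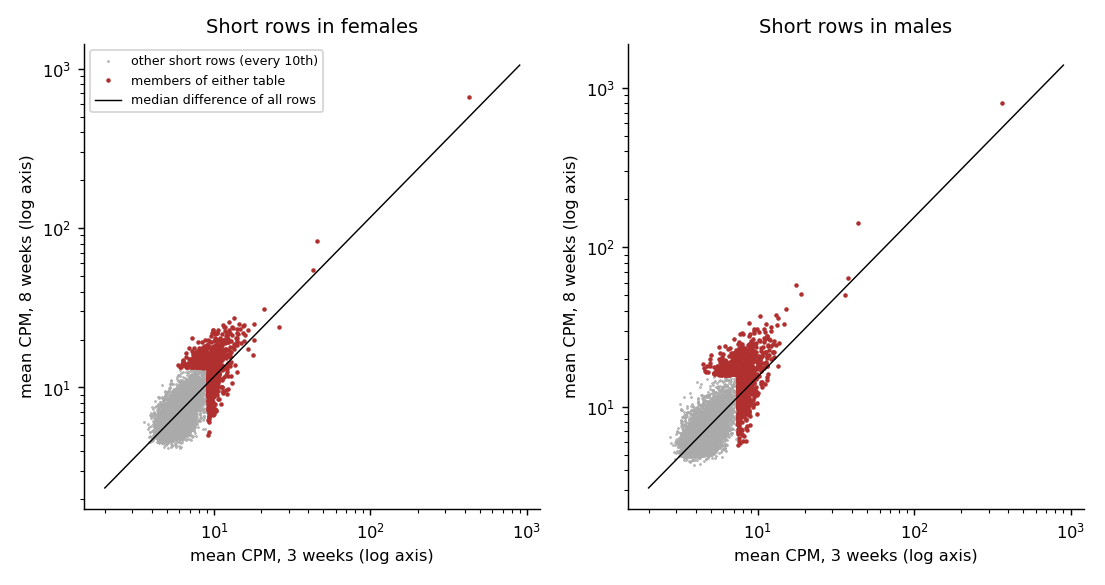
Authors' mean CPM at 3 and 8 weeks (log axes) of short rows with identical coordinates, in females and males; red, members of either table; grey, every 10th other row; line, median difference of all rows. The straight edges of the red cloud are the thresholds of the rule.

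Over all short rows, the difference relative to the shift moved with CpG content. The median was -0.07 in females and -0.09 in males for rows with under 2 CpG per 100 bases, 0.02 and 0.01 for 2 to 4, and 0.18 and 0.22 for 4 or more. At members of the other sex the medians were 0.13 and 0.10 under 2 CpG, 0.32 and 0.38 for 2 to 4, and 0.41 and 0.51 for 4 or more. In the highest class, 288 of 305 rows in females and 249 of 260 in males lay above the shift. CpG content moves together with the age difference, and its part in it was not tested.

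The members with the largest differences by age were chosen by the levels compared, and their values are a description. In females, the intronic row of Pclo at chr5:14552266-14552766 went from 7.22 CPM at 3 weeks to 20.4 CPM at 8 weeks, 1.27 above the shift on the log2 scale. The row near Mir148a, the gene of an abundant liver microRNA, at chr6:51178359-51178859 went from 7.91 to 19.4 CPM, and rows near Eml6 and Ndufa4 went from 6.89 to 17.6 and from 6.61 to 16.4 CPM. In the other direction, the promoter row of Zfp267 at chr3:36161053-36161553 went from 9.17 to 5.01 CPM. Rows near Fcho2 went from 9.26 to 5.25 CPM, near Fam172a from 9.26 to 6.07 CPM and near Il7 from 9.90 to 6.71 CPM.

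In males, the row near Zfp958 at chr8:4651830-4652330 went from 5.60 to 23.7 CPM, 1.45 above the shift. Rows near Zfat, Malt1 and Vmn2r18 went from 5.04 to 21.1, from 4.45 to 18.5 and from 4.97 to 19.9 CPM. In the other direction, the row nearest to the imprinted gene Peg12 at chr7:62764668-62765157 went from 8.34 to 6.06 CPM. Rows near Ehbp1, Cdh18 and Atp6v1g3 went from 8.05 to 6.11, from 7.43 to 5.73 and from 7.71 to 5.95 CPM. All of these were members of at least 1 of the tables, so the largest values are also those most favoured by the choice.

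Levels in females and males were set side by side at each age. Identical coordinates occurred in 43 pairs of short rows at 3 weeks and 40 at 8 weeks, so rows sharing at least 50% of each were paired. The 2 rows of a pair can differ in length, on which a level per bin depends, and the levels were not corrected for it. Relative to the shift of all short rows, the median male minus female difference of members of both tables was 0.05 at 3 weeks (359 pairs) and 0.20 at 8 weeks (315 pairs, 289 above the shift). Relative to the same shifts, the male threshold lay 0.02 above the female one at 3 weeks and 0.18 at 8 weeks, so these medians are fixed in large part by the rule, and nothing about the sexes is read from them. Of 1351 member pairs listed at both ages, the mean of both ages relative to the shift passed 2-fold in 2 pairs, which were chosen by the levels compared.

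The pair higher in males lay in the annotated exon or UTR region near Cul2 on chromosome 18, with 5.94 CPM in females and 10.5 CPM in males at 3 weeks, and 7.09 and 13.9 CPM at 8 weeks. The pair higher in females was at chr17:33232206-33232706 near the olfactory receptor gene Or10h5, with 11.9 CPM in females and 5.95 CPM in males at 3 weeks, and 21.0 and 8.06 CPM at 8 weeks. The next on the male side were near Ncoa2 (5.09 and 7.67 CPM in females and males at 3 weeks, 5.63 and 10.1 CPM at 8 weeks), Mill1 (5.73 and 7.40 CPM, then 9.23 and 18.8 CPM) and Mup21. At Mup21, a major urinary protein gene, females had 6.95 and males 7.07 CPM at 3 weeks, and females had 11.2 and males 26.4 CPM at 8 weeks. The row near Mup21 was 431 bp in females and 501 bp in males. On the female side, rows near Gm20740, Gmds and Asrgl1 had 9.38, 9.39 and 9.25 CPM in females and 4.36, 4.99 and 4.20 CPM in males at 3 weeks, and 9.60, 9.96 and 9.36 CPM against 5.77, 6.38 and 7.21 CPM at 8 weeks.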

How the data were processed

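H3K9me3 chromatin immunoprecipitation libraries (32, in 8 groups of 4) and 4 input libraries from mouse liver were grouped by their labels. Reads had been mapped by the authors (Burrows-Wheeler Aligner, build mm10/GRCm38). The authors then used MACS2 in broad mode, removed blacklisted regions, kept peaks present in several replicates, merged them within each sex, divided longer peaks into bins, counted reads with featureCounts and tested with edgeR. The deposited tables hold the authors' mean log2 CPM over the 8 libraries of a comparison, coordinates and gene annotation, and the authors' own fold changes, p-values and false discovery rates, which were not used. Total counts per library are not in the values used, so depth is unknown. Columns of single samples left unused numbered 0.

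CPM was computed from log2 CPM. Rows were chosen as the report states. Sequence was read from GRCm38.p6, with soft-masking, 31-mer occurrence counts (numba 0.67.0) and megablast matches (BLAST+ 2.17.0, word 28), under Python 3.11.15 and pandas 2.3.3. Overlap and 31-mer counting were tested on simulated cases. No test was run, because no value per library was used. The members and gene lists were chosen with earlier results of these data known. Named places are the first 12 by number of tables and mean CPM, the highest row of each table, up to 4 per gene list, 2 rows on each side of every threshold, the 4 with most matches and the 4 largest differences in each direction between ages and between sexes; others are named as chosen after their values were seen. Some places that this rule names are not reported here. Alternatives varied the threshold, peak length, ranking, overlap, identity, centring and annotation.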

Additional observations from a re-analysis of the deposited data

How the results depend on the processing

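Taking the top 0.5% or 2% gave 904 or 3596 places instead of 1863, and ranking by CPM per base gave 3028, with 10.0% of the members kept. A limit of 500 bp on the peak gave 1361 places and kept 29.4% of the members, and a limit of 2000 bp gave 2608. Identical coordinates left 0.469% of control female members shared with control males, against 61.7%. The share of members over 50% masked was 72.8% in control females and 77.9% in control males at the top 0.5%, and 35.7% and 33.1% when ranked by CPM per base. Places with 10 or more matches fell from 59.7% to 24.3% at 95% identity and to 41.8% over at least 80% of the bin. Promoters within 1 kb were 2.66% in control females and 2.93% in control males. Centred on all short rows, the age difference of members of either table moved from 0.50 to 0.28 (females) and from 0.88 to 0.26 (males). The male minus female difference turned from -0.21 to 0.11 at 3 weeks and from -0.27 to 0.19 in controls when centred. In control females, zinc finger genes took 3.91% of members when the row had to lie in the gene or within 3 kb of its start, 9.06% at the top 0.5% and 4.46% at the top 2%, and P450 genes 1.41%, 5.94% and 2.50%. The comparison among full bins and the split of the age difference by CpG content, and the gaps between the thresholds, were chosen after seeing the data. No paired analysis was possible because the tables hold means over libraries, and leaving out a replicate could not be run for the same reason.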
